A study of Homo sapiens with 23 samples.

Results

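The BCL2 family decides whether a stressed cell releases cytochrome c from its mitochondria, and 10 of its genes were followed here in chromatin immunoprecipitation sequencing of SW480 cells, a human colorectal adenocarcinoma line. The genes were BCL2, BCL2L1 and MCL1, which block death, BAX and BAK1, which form the pore, and BID, BBC3, PMAIP1, BCL2L11 and BMF, which carry only the BH3 motif and start the process. They were chosen by name, and each was read over its GENCODE version 44 gene body with 5 kb added on both sides, so that they made up 10 of 20007 protein-coding genes. The measurement was the percent of that window covered by called regions, with the number of regions, the place of the strongest region in its list, and whether a region lay within 500 bp of the start site of the canonical transcript.

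Cells had been given 10 mM sodium propionate (NaPr), 1 mM sodium butyrate (NaBu) or neither. Treatment lasted 12 to 16 h. Propionylated H3K18 and H4K12 (H3K18pr, H4K12pr) were mapped in NaPr cells, butyrylated H3K18 and H4K12 (H3K18bu, H4K12bu) in NaBu cells, and the acetylated forms (H3K18ac, H4K12ac) in NaPr, NaBu and untreated cells. Each of these 10 groups had 2 libraries, and each of the 3 conditions had 1 input library, sequenced without antibody. The doses of NaPr and NaBu differed, so their values are set side by side without a comparison between the agents.

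Acylation of a histone lysine neutralises its charge, and acetylation of H3K18 and H4K12 is known from active promoters and enhancers. Propionate and butyrate are short-chain fatty acids made by gut bacteria, and inside cells they are the source of propionyl and butyryl groups and inhibit histone deacetylases. BCL2L1 encodes BCL-xL, the main death-blocking protein of many colorectal tumours. BBC3 encodes PUMA and PMAIP1 encodes NOXA, both classical targets of p53, while BCL2L11 encodes BIM.

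The sequences shown are those at the extremes of start site occupancy. A region lay at the canonical start site of BCL2L1 in 20 of 20 immunoprecipitated libraries and of BBC3 in 18, against 6 for BID and 1 for BCL2. Each line gives the 150 bases upstream of the first base of the gene record in hg38, on the minus strand and read 5′ to 3′, with any GC box in capitals (GGGCGG or its complement CCGCCC, both strands searched).
BCL2L1, chr20:31723990-31724139: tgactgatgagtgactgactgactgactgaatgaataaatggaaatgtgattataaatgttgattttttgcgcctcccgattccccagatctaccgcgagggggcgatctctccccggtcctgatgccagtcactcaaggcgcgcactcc
BBC3, chr19:47232767-47232916: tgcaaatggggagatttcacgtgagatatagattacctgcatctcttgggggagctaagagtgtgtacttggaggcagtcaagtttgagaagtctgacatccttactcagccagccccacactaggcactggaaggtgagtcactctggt
BID, chr22:17774771-17774920: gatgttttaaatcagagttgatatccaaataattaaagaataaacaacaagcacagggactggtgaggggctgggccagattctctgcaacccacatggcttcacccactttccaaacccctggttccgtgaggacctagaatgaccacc
BCL2, chr18:63320129-63320278: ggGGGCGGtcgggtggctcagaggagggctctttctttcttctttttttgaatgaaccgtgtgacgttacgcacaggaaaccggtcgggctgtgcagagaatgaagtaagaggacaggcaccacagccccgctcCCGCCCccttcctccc
None of the 4 stretches overlapped an annotated exon. Called regions overlapped the BCL2L1 stretch in 11 of 20 libraries, the BBC3 stretch in 16, the BID stretch in 6 and the BCL2 stretch in 0. The gene record began 1121 bp from the canonical start of BCL2L1, 1567 bp from that of BBC3, 301 bp from that of BID and 359 bp from that of BCL2. Among the 4, the BCL2 stretch held 2 GC boxes and the other three held 0. In the 150 bases upstream of the canonical starts, BBC3 held 10, BID 4, and BCL2L1 and BCL2 0, so the counts depend on which start is used. A GC box stood in the stretch of 6 of the 10 genes, against 43.4% of all 20007 genes.

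The libraries differed in ways that reach every value below. The lists held from 8158 regions (H4K12bu replicate 2) to 208823 regions (H4K12ac of untreated cells, replicate 1). The run tags in the deposited names put the propionyl libraries in one batch, the acetyl libraries of NaPr and untreated cells in another and all NaBu libraries in the last. Thus propionyl against acetyl, and NaBu against untreated, cannot be told apart from batch. H3K18ac of NaPr cells, replicate 1, stood apart: its 8158 strongest regions shared 0.512 of their covered bases with H4K12ac of untreated cells (replicate 1) and 0.30 with its own replicate (Jaccard index). It also shared 0.507 with H4K12ac of untreated cells, replicate 2, and 0.416 and 0.472 with the H3K18ac libraries of untreated cells. Whether its label is right was not tested, and the label was followed. It was not alone in being closer to another group. Replicate 2 of H3K18ac of NaPr cells shared 0.425 with H3K18pr replicate 2. In NaBu cells, H4K12ac replicate 2 shared 0.359 with H3K18bu replicate 1 and 0.325 with its own replicate. H4K12bu replicate 1 shared 0.358 with H4K12ac of NaBu cells, replicate 2, and 0.303 with its own replicate. The 4 acetyl lists labelled NaBu carry a tag for control in their deposited names, and the labels were followed. The start sites of KRT18 and KRT8, epithelial keratins, held a region in 20 and 19 of 20 libraries, and EPCAM in 16. CDX1, a colon factor, held one in only 2. PTPRC, CD3E and COL1A2, markers of blood and stroma, held none.

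**Figure D1:**
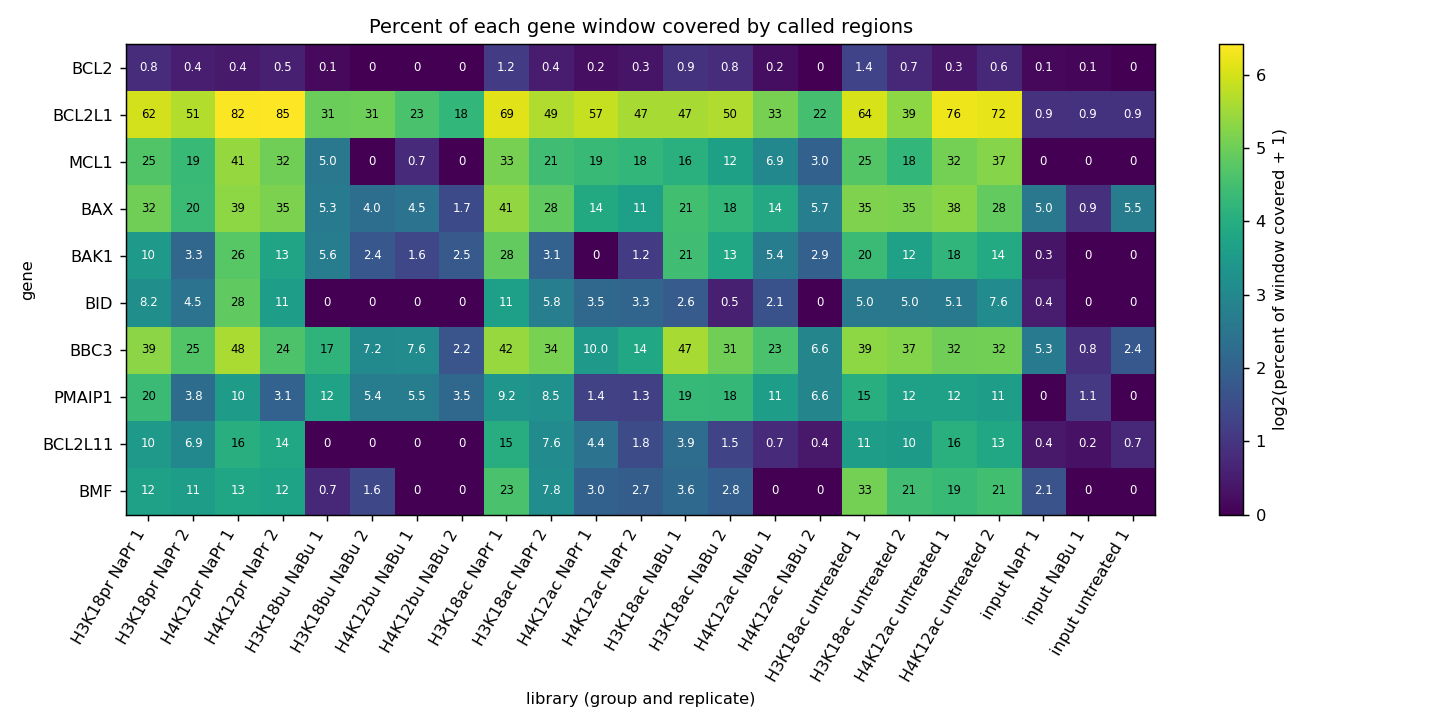
Percent of each gene window (gene body and 5 kb on both sides) covered by called regions, for 10 genes (vertical) and 23 libraries (horizontal, group and replicate), with the percent printed in each cell and the colour on a log2(percent + 1) scale. BCL2L1 is high in every immunoprecipitated library and below 1% in the inputs, and BCL2 stays at or under 1.44% throughout.

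Among the genes that block death, BCL2L1 carried the broadest domain and BCL2 almost none. BCL2L1 coverage was 62.1% and 50.5% of its 69.5 kb window in the H3K18pr libraries. It was 82.0% and 84.6% with H4K12pr. The H4K12pr values were the highest of the 10 groups. The H3K18bu libraries gave 30.7% and 31.2%, and the H4K12bu libraries 22.7% and 17.97%. The H3K18ac libraries gave 69.4% and 49.2% in NaPr cells, 47.1% and 49.7% in NaBu cells, and 64.3% and 39.1% in untreated cells. The H4K12ac libraries gave 56.9% and 47.2%, 33.4% and 22.1%, and 76.0% and 72.2% in the same order. Every one of these values lay far above the 3 inputs, which covered 0.877% (NaPr), 0.935% (NaBu) and 0.925% (untreated).

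Ordered by mean, BCL2L1 ran from H4K12pr, at 83.3% ± 1.90 (SD, n = 2), and H4K12ac of untreated cells, at 74.1% ± 2.69, down to H4K12bu, at 20.3% ± 3.36. Of the 9 pairs of neighbours in that order, 3 did not overlap between their replicates: the first and the second group, the second and H3K18ac of NaPr cells, and H3K18ac of NaBu cells and H3K18bu. The strongest region in the window was placed between 25 and 678 in its list in all 20 immunoprecipitated libraries, where place 1 is the smallest p. In the inputs the best places were 70631, 5510 and 12211. In each library, 98.8% to 99.98% of all genes had a lower coverage than BCL2L1. Of the 28 other coding genes whose start lay within 1 Mb of its own, none exceeded it in 18 of 20 libraries and 1 did in the 2 H3K18ac libraries of NaBu cells. The median coverage of those 28 neighbours ranged from 0 to 14.7%.

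A stretch of 2128 bp at chr20:31720342-31722469, centred 1463 bp downstream of the canonical start of BCL2L1, lay within regions in 20 of 20 libraries, and a region of 1 input touched it. The summit of the strongest region was not there in most libraries. It fell 18.3 to 18.6 kb downstream, in the gene body, in 11 libraries, which included all 4 propionyl libraries, both H4K12bu libraries and all 4 acetyl libraries of NaBu cells. It fell 9.61 to 9.65 kb downstream in 6 libraries, all of them acetyl libraries of NaPr or untreated cells.

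BCL2, the founding member, was nearly free of regions across its 207 kb window. Its percent covered had a lowest value of 0, a median of 0.394% and a highest value of 1.44% over the 20 libraries, and the highest was H3K18ac of untreated cells, replicate 1. That was also the only library with a region at its start site. Both H4K12bu libraries, H3K18bu replicate 2 and H4K12ac of NaBu cells, replicate 2, listed no region in the window, which says only that none passed the threshold of the lists. No strongest region was placed above 15389. The position shared by most libraries, 10 of 20, was 43 bp in an intron 81.7 kb from the start.

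MCL1, a short-lived blocker of death, followed the pattern of BCL2L1 at a lower level. Its coverage was 24.5% and 19.1% with H3K18pr, and 41.1% and 31.8% with H4K12pr. The H3K18bu libraries gave 4.97% and 0, and the H4K12bu libraries 0.707% and 0. Acetyl coverage in untreated cells was 24.9% and 18.1% (H3K18ac) and 32.5% and 37.0% (H4K12ac). In NaBu cells it was 15.7% and 11.6% (H3K18ac) and 6.95% and 2.98% (H4K12ac), below both untreated replicates for each mark. In NaPr cells it was 33.2% and 20.9% (H3K18ac) and 19.1% and 18.1% (H4K12ac), so that only the H4K12ac groups were apart. The inputs had no region in the window. Its start site was occupied in 17 libraries. The position shared by most, 18 of 20, was 203 bp at chr1:150561900-150562102, 17.6 kb downstream of the canonical start. It lay within the gene record but outside the canonical transcript, in exon sequence counted over all annotated genes. The window also holds the coding gene ADAMTSL4, whose start lies 12.6 kb from that position.

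The pore-forming genes differed in how constant they were. BAX coverage was 31.8% and 19.7% with H3K18pr, 39.3% and 34.9% with H4K12pr, 5.32% and 4.02% with H3K18bu, and 4.47% and 1.74% with H4K12bu. In untreated cells it was 35.4% and 34.9% (H3K18ac) and 37.5% and 28.3% (H4K12ac). In NaBu cells the values were 21.1% and 18.01% (H3K18ac) and 13.8% and 5.72% (H4K12ac), below the untreated replicates in both marks. In NaPr cells they were 40.9% and 28.1% (H3K18ac), overlapping the untreated pair, and 14.0% and 11.4% (H4K12ac), below it. The inputs covered 4.99% (NaPr), 0.86% (NaBu) and 5.53% (untreated) of the BAX window. Its most shared position, 173 bp at chr19:48963582-48963754 in 19 of 20 libraries, lay beyond the gene, 8.79 kb from the BAX start and 1.64 kb from the start of FTL, the ferritin light chain gene. Values of the BAX window thus include the start site of FTL and its surroundings.

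BAK1, the other pore-forming gene, varied widely between replicates in several groups. Its coverage was 10.0% and 3.33% with H3K18pr and 25.8% and 12.6% with H4K12pr. In NaPr cells it was 28.5% and 3.07% with H3K18ac, where the library that stood apart was the high one, and 0 and 1.16% with H4K12ac. With butyryl marks it was 5.62% and 2.36% (H3K18bu) and 1.59% and 2.46% (H4K12bu). In NaBu cells it was 21.0% and 13.3% (H3K18ac) and 5.43% and 2.92% (H4K12ac). In untreated cells it was 19.6% and 11.7% (H3K18ac) and 17.9% and 14.1% (H4K12ac). H3K18ac of NaBu and untreated cells overlapped in coverage. The strongest region was placed at 925 and 1507 in NaBu lists of 116459 and 60344 regions, and at 5781 and 7737 in untreated lists of 76888 and 155103 regions, and places in lists of unequal length are not compared. Its fold over background was 24.0 and 16.3 in NaBu cells and 16.9 and 8.33 in untreated cells, which overlap. That region lay 9.13 kb downstream of the start, past the end of the gene, and its core at chr6:33571048-33571253 was covered in 15 of 20 libraries.

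Of the BH3-only genes, BBC3 and PMAIP1 had regions in every immunoprecipitated library. BBC3 coverage was 38.5% and 24.6% with H3K18pr, 48.1% and 23.9% with H4K12pr, 17.0% and 7.23% with H3K18bu, and 7.57% and 2.21% with H4K12bu. The H3K18ac libraries gave 42.1% and 34.2% (NaPr), 46.6% and 31.4% (NaBu) and 39.5% and 36.8% (untreated), and these 3 pairs overlapped. The H4K12ac libraries gave 10.0% and 13.5% (NaPr), 22.8% and 6.63% (NaBu) and 31.7% and 32.2% (untreated), with both treated pairs below the untreated one. The inputs covered 5.27%, 0.811% and 2.40%, and the NaPr input had a region at the start site. In 3 of the 4 acetyl libraries of NaBu cells the strongest region had its summit upstream of the canonical start, at -326, -442 and -365 bp. These summits lie inside the gene record, which begins 1567 bp upstream of that start, so the side depends on the transcript chosen. In all 8 libraries of NaPr cells and all 4 of untreated cells the strongest summit lay 4224 to 5330 bp downstream of the canonical start. The position most shared, in 19 of 20 libraries, was 208 bp centred at -620 bp (chr19:47231716-47231923), and a region of 1 input touched it.

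PMAIP1 was the only one of the 10 genes whose H3K18ac coverage was higher in both NaBu libraries than in both untreated ones, a call that was lost when the gene body was read without its flanks. Its H3K18ac coverage was 18.7% and 18.2% in NaBu cells and 15.4% and 11.8% in untreated cells, a difference of means of 4.90 percentage points. The H3K18ac group of NaBu cells, at 18.5% ± 0.351 (SD, n = 2), was the highest of its 10 groups and did not overlap the next. The strongest H3K18ac region was placed at 1161 and 401 in the NaBu lists, with folds of 22.2 and 25.9, and at 5870 and 15288 in the untreated lists, with folds of 23.6 and 6.82. The folds overlapped, and the places come from lists of unequal length. Its H4K12ac coverage was 11.03% and 6.64% in NaBu cells, below 11.9% and 11.2% in untreated cells. In NaPr cells it was 9.19% and 8.53% (H3K18ac) and 1.37% and 1.34% (H4K12ac), below the untreated pair in both marks. With the acyl marks it was 19.7% and 3.79% (H3K18pr), 10.5% and 3.06% (H4K12pr), 12.0% and 5.44% (H3K18bu), and 5.45% and 3.51% (H4K12bu).

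The strongest PMAIP1 region lay on different sides of the start in the 2 treatments. Its summit was upstream in 8 of 8 libraries of NaBu cells and downstream in 8 of 8 libraries of NaPr cells. In untreated cells it was downstream in both H3K18ac libraries and upstream in both H4K12ac libraries. All NaBu libraries shared a batch and treatment, so the side of the summit cannot be told apart from batch.

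**Figure D2:**
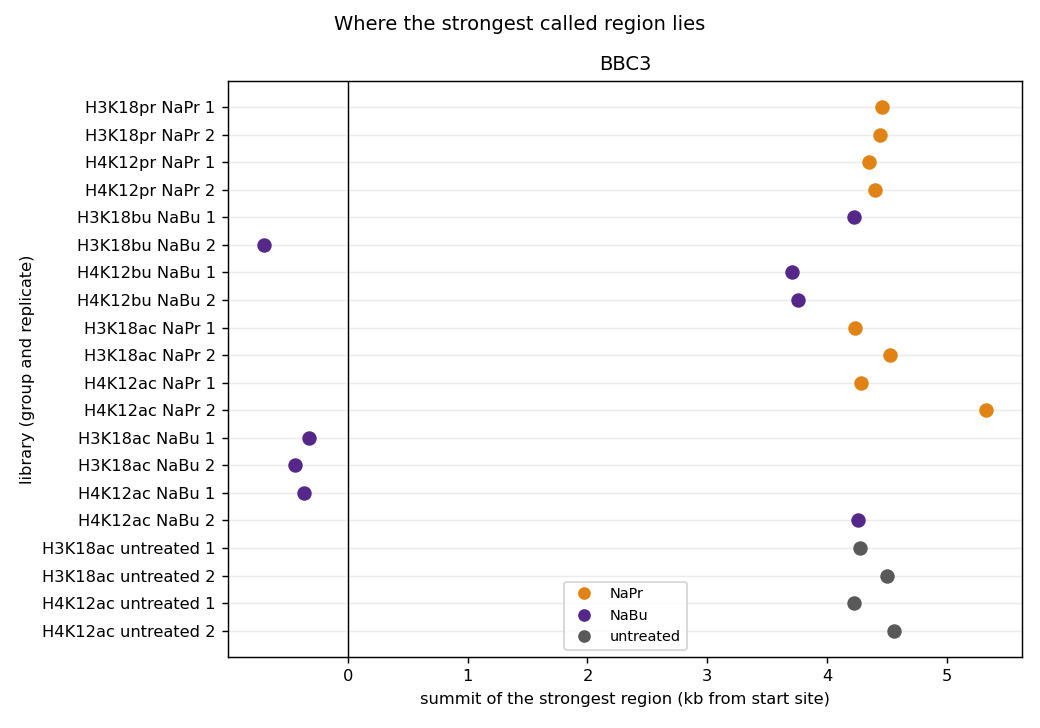
Summit of the strongest called region in the window of BBC3, in kb from the canonical start site (vertical line), for each of 20 immunoprecipitated libraries, coloured by treatment. In NaBu cells 4 of the 8 summits lie upstream of that start, inside the gene record, which begins 1567 bp upstream of it. The NaPr and untreated summits all lie downstream.

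BMF and BCL2L11 had lower acetyl coverage in NaBu than in untreated cells with both marks, as did MCL1, BAX and BID. This was common: over both marks, 55.2% of all genes were lower at the smallest p the exact permutation test can give. BID had the fewest occupied start sites after BCL2. BMF, whose protein is tied to the cytoskeleton until released, had H3K18ac coverage of 32.7% and 20.8% in untreated cells and 3.61% and 2.76% in NaBu cells. Its H4K12ac coverage was 19.1% and 21.2% in untreated cells and 0 in both NaBu libraries. The groups did not overlap in either mark. With equal numbers of regions per list, no H3K18ac list of untreated or NaBu cells kept a region in the BMF window. That setting therefore cannot decide the H3K18ac difference. The H4K12ac difference went from -20.1 to -1.03 points under it, with overlapping replicates. In 3 places of the window both untreated H3K18ac libraries had a region and neither NaBu library did. One was centred 1079 bp downstream of the start (2001 bp, fold 9.34 and 4.71). Another lay in an intron 5697 bp downstream (1435 bp, fold 7.59 and 6.58). The last lay beyond the gene, 26655 bp downstream (3184 bp, fold 12.9 and 4.73), and reached past the edge of the window. Within 500 bp of the BMF start, H3K18ac of NaBu cells, replicate 1, did have a region. In NaPr cells BMF coverage was 23.03% and 7.79% (H3K18ac) and 3.01% and 2.70% (H4K12ac). With the acyl marks it was 11.8% and 11.2% (H3K18pr), 13.03% and 12.3% (H4K12pr), 0.668% and 1.63% (H3K18bu) and 0 in both H4K12bu libraries.

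BCL2L11 coverage was 11.1% and 10.3% (H3K18ac) and 15.8% and 13.5% (H4K12ac) in untreated cells. In NaBu cells it was 3.90% and 1.497% (H3K18ac) and 0.711% and 0.354% (H4K12ac), and no butyryl library had a region in the window. In NaPr cells it was 15.1% and 7.61% (H3K18ac), 4.44% and 1.78% (H4K12ac), 10.0% and 6.94% (H3K18pr) and 15.7% and 13.5% (H4K12pr). The untreated input held a region placed at 96 in its list, 608 bp downstream of the start, so the start site of BCL2L11 was also occupied in that input. In 12 places of the window both untreated H4K12ac libraries had a region and neither NaBu library did. Among them was a 582 bp stretch centred at -504 bp from the start, with folds of 3.34 and 3.97. Within 500 bp of the BCL2L11 start, H4K12ac of NaBu cells, replicate 1, did have a region. With equal numbers of regions per list, no H3K18ac list of untreated or NaBu cells kept a region in the BCL2L11 window. The H3K18ac difference cannot be decided under that setting. The H4K12ac difference went from -14.1 to -0.170 points, with overlapping replicates.

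BID, which links death receptors to mitochondria, had no region in any of the 4 butyryl libraries. Its coverage was 8.16% and 4.46% with H3K18pr and 28.1% and 11.1% with H4K12pr. The H4K12pr group, at 19.6% ± 12.1 (SD, n = 2), was its highest but overlapped the next. Acetyl coverage was 4.99% and 4.98% (H3K18ac) and 5.08% and 7.55% (H4K12ac) in untreated cells. It was 11.4% and 5.76% (H3K18ac) and 3.50% and 3.30% (H4K12ac) in NaPr cells, and 2.57% and 0.49% (H3K18ac) and 2.08% and 0 (H4K12ac) in NaBu cells. BID was the only one of the 10 genes higher in NaPr than in untreated cells with H3K18ac, a call that was lost when regions were held to a q under 0.05. Its most shared position, in an intron, was covered in 8 libraries, the fewest of the 10 genes.

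**Figure D3:**
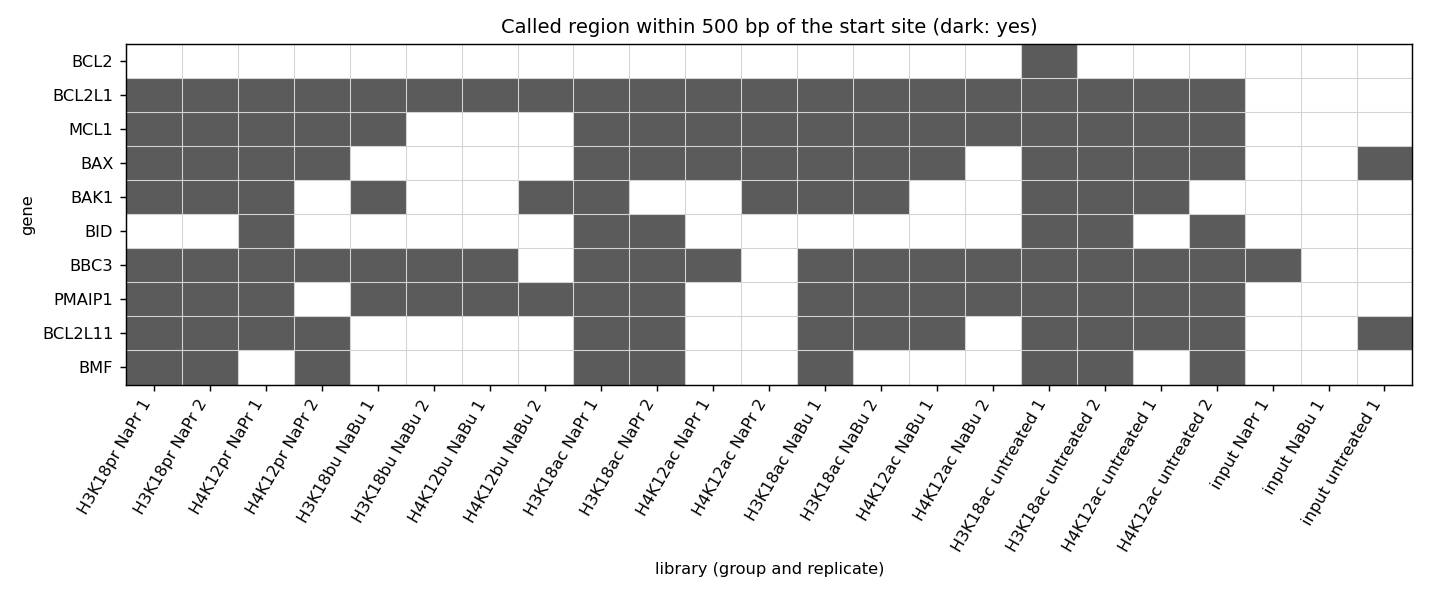
Occupancy of the canonical start site of 10 genes (vertical) in 23 libraries (horizontal), where a dark cell means that a called region lies within 500 bp. BCL2L1 is occupied in 20 of 20 immunoprecipitated libraries and BCL2 in 1, and the H4K12bu columns hold the fewest dark cells of the 10 groups.

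Start site occupancy was read against all 20007 genes. Both H3K18ac libraries of untreated cells had a region at 9 of the 10 start sites, all but that of BCL2, against 62.8% of all genes, and both H4K12ac libraries of untreated cells at 6, against 57.8%. In NaPr cells the counts were 8 for H3K18pr (39.3% of all genes), 5 for H4K12pr (44.1%), 8 for H3K18ac (49.7%) and 3 for H4K12ac (13.5%). In NaBu cells they were 3 for H3K18bu (7.03%), 2 for H4K12bu (4.24%), 7 for H3K18ac (38.2%) and 4 for H4K12ac (11%). The 3 with H3K18bu were BCL2L1, BBC3 and PMAIP1, and the 2 with H4K12bu were BCL2L1 and PMAIP1. In every group the share of the 10 genes was above that of all genes, and 1 gene moved that share by 10 percentage points. The inputs had a region at 1 of the 10 start sites in NaPr cells (BBC3, 4.32% of all genes), 0 in NaBu cells (1.28%) and 2 in untreated cells (BAX and BCL2L11, 14.6%).

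Whether an acyl mark covers these genes as the acetyl mark does was read from 4 comparisons, each within one histone site and one treatment. With 2 libraries against 2, an exact permutation test cannot give a p below 0.333, so a gene was called when both replicates of one group lay above both of the other, and the calls were read against all genes. H4K12pr covered more than H4K12ac in NaPr cells for 10 of 10 genes, where 61.4% of all genes were higher and 4.93% lower. The median difference was 17.0 percentage points over the 10 genes and 3.41 over all genes. BCL2L1 had the largest, at 31.3 points, and BCL2 the smallest, at 0.191. For H3K18pr against H3K18ac in NaPr cells no member was called in either direction, against 12.5% higher and 11.1% lower among all genes. Their median difference was -3.43 points, against -0.458 for all genes. Without the H3K18ac library of NaPr cells that stood apart, 4 of the 10 genes were higher with H3K18pr, and without its replicate 9 were lower. The H3K18 comparison thus turned on which of the 2 acetyl libraries was used. When a library is left out, fewer libraries must agree for a call. No share of all genes was set beside such counts, here or below.

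In NaBu cells, H3K18bu covered less than H3K18ac for 10 of 10 genes, where 64.5% of all genes were lower and 0.08% higher. The median difference was -10.5 points, against -1.40 for all genes, and it was largest at BBC3, at -26.9 points, and BCL2L1, at -17.5. H4K12bu covered less than H4K12ac for 5 of the 10 genes (MCL1, BAX, BAK1, PMAIP1 and BCL2L11), where 20.1% of all genes were lower and 0.105% higher. The median difference was -3.25 points, against -0.479 for all genes. BCL2L1, at 22.7% and 17.97% against 33.4% and 22.1%, overlapped. Without H4K12ac of NaBu cells, replicate 2, 9 of the 10 genes were lower. The lists of the butyryl libraries held 8158 to 22497 regions and those of the NaBu acetyl libraries 11680 to 116459. When every list was cut to its 8158 strongest regions, 6 of the 10 genes were lower with H3K18bu (19.7% of all genes) and 3 with H4K12bu (8.81%), and 4 were higher with H4K12pr (17.8%).

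**Figure D4:**
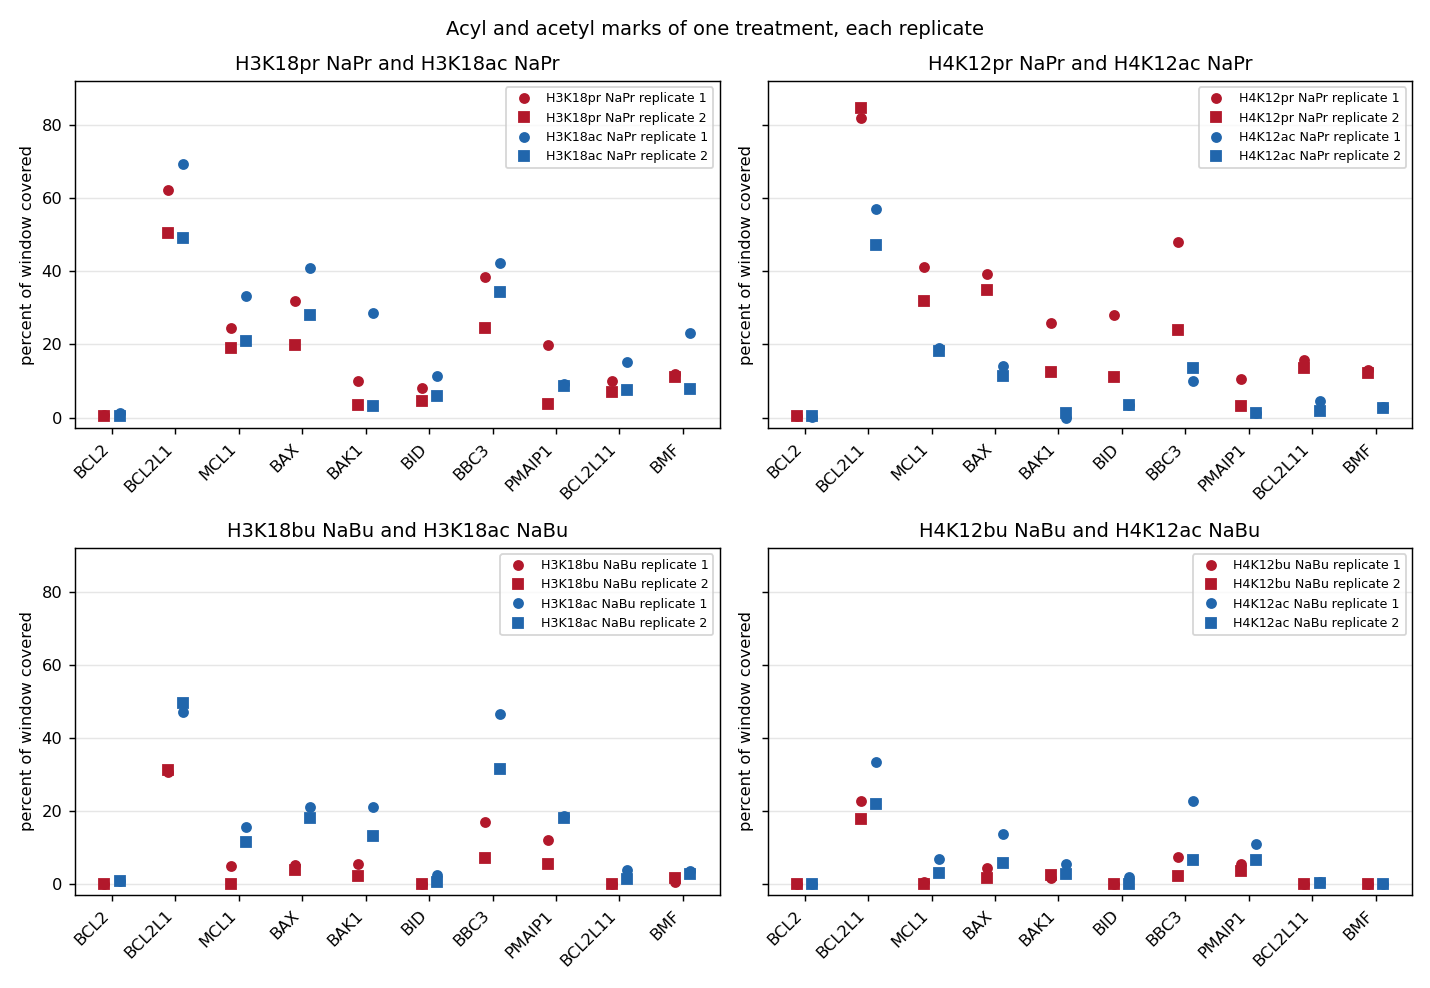
Percent of the window covered (vertical) for 10 genes (horizontal) with the acyl mark (red) and the acetyl mark (blue) of one site and treatment, circles for replicate 1 and squares for replicate 2. H4K12pr lies above H4K12ac for 10 of 10 genes, H3K18bu lies below H3K18ac for 10 of 10, and the H3K18pr and H3K18ac replicates overlap for all 10.

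Over the 4 comparisons together, an exact permutation test within them (1296 arrangements, two-sided, Benjamini-Hochberg adjusted over 20007 genes) called no gene. At an adjusted p under 0.05, 0.0% of all genes were higher and 0.0% lower with the acyl marks. At an unadjusted p under 0.05 there were 579 genes, none of them among the 10. The smallest unadjusted p of the 10 genes was 0.157 (BCL2), and each had an adjusted p of 1. Averaged over the 2 histone sites, the difference at BCL2L1 was 14.2 points in NaPr cells and -12.4 in NaBu cells, at BAX 7.85 and -10.8, and at BBC3 8.81 and -18.3. The NaPr averages join H4K12 differences of 31.3, 24.4 and 24.2 points with H3K18 differences of -2.94, -8.70 and -6.60, whose replicates overlapped. The exact permutation test over the 2 sites gave p of 0.222, 0.333 and 0.444 in NaPr cells. In NaBu cells it gave 0.111, 0.0556 and 0.111. The difference between the treatments was not tested.

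The question of whether treatment moved acetylation at these genes was read against untreated cells, with the same controls for both agents. H4K12ac was lower in NaPr than in untreated cells for 10 of 10 genes, where 67.3% of all genes were lower and 5.66% higher. The median difference was -15.8 points, against -3.22 for all genes. With 8158 regions per list, 2 of the 10 genes were lower and 1 higher (23.4% and 2.41% of all genes), and BCL2L1 went from -22.1 points to 11.002. H4K12ac was lower in NaBu than in untreated cells for 10 of 10 genes as well, where 74.4% of all genes were lower and 0.25% higher, with medians of -15.7 and -4.62 points. H4K12ac of NaBu cells, replicate 2, had only 11680 regions. With 8158 regions per list, 3 of the 10 genes were lower and 1 higher (23.6% and 3.73% of all genes). Under that setting the differences at BAK1, BBC3 and PMAIP1 changed sign, from -11.8, -17.3 and -2.71 points to 0.642, 1.49 and 4.05.

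H3K18ac moved less. In NaPr cells 1 gene was higher than in untreated cells (BID) and 1 lower (PMAIP1), where 4.72% of all genes were higher and 14.6% lower, and the median difference was 0.0474 points, against 0 for all genes. Without the H3K18ac library of NaPr cells that stood apart, 7 of the 10 genes were lower in NaPr cells, and without its replicate 7 were higher. In NaBu cells 1 gene was higher (PMAIP1) and 5 were lower (MCL1, BAX, BID, BCL2L11 and BMF), where 3.19% of all genes were higher and 58.7% lower. The median difference was -3.38 points, against -1.79 for all genes. BCL2, BCL2L1, BAK1 and BBC3 overlapped. Without H3K18ac of untreated cells, replicate 1, 4 of the 10 genes were higher in NaBu cells. Over both acetyl marks, the exact permutation test had 36 arrangements and cannot go below 0.0556. That p was reached in NaBu cells by MCL1 (-18.8 points), BAX (-19.4), BID (-4.37), BCL2L11 (-11.0) and BMF (-21.9), and in NaPr cells by PMAIP1 (-7.45). Among all genes 55.2% reached it as lower and 0.195% as higher in NaBu cells, and 10.8% and 0.465% in NaPr cells. No gene passed adjustment over all genes in this exact permutation test, where the smallest adjusted p was 0.1003 in NaBu cells and 0.492 in NaPr cells, and 0 genes had an unadjusted p under 0.05.

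**Figure D5:**
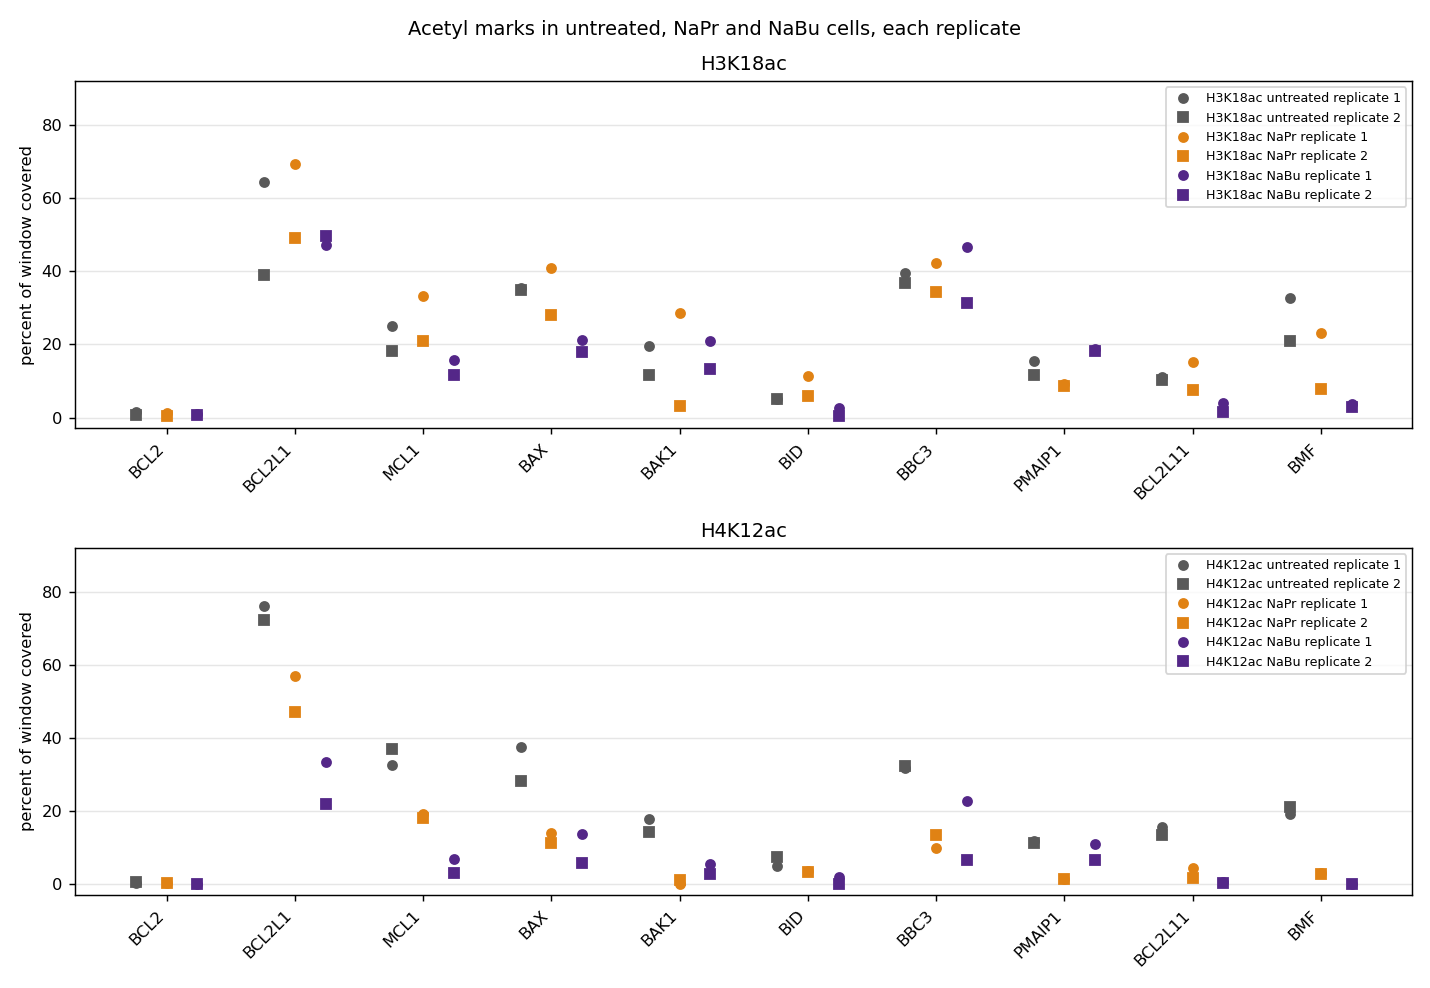
Percent of the window covered (vertical) for 10 genes (horizontal) with H3K18ac (top) and H4K12ac (bottom) in untreated, NaPr and NaBu cells, circles for replicate 1 and squares for replicate 2. With H4K12ac both treated pairs lie below the untreated pair for 10 of 10 genes, and with H3K18ac PMAIP1 is the only gene whose NaBu pair lies above the untreated pair.

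Single places in the windows were counted as well. Regions of the 4 libraries of a comparison were merged within the 10 windows. A merged place was counted when both libraries of one group had a region there and neither of the other did. Places were counted only within the 10 windows, here and for BMF and BCL2L11 above. No share over all genes stands beside the counts, and the lists differed in length. The counts are therefore not read as traits of these genes. For H4K12pr against H4K12ac there were 15 such places with only H4K12pr and 3 with only H4K12ac, of 136. Those with only H4K12pr included an exon of BAX (1999 bp, fold 7.004 and 7.47). Another was centred 789 bp downstream of the BAK1 start (1184 bp, fold 4.16 and 4.79). Within 500 bp of the BAK1 start, 1 of 2 libraries of each mark had a region. For H3K18bu against H3K18ac there were 0 with only H3K18bu and 16 with only H3K18ac, of 99, and for H4K12bu against H4K12ac 0 and 1, of 75. For H3K18pr against H3K18ac there were 1 and 7, of 165. The single H3K18pr place was 818 bp upstream of BCL2L1, centred at -2813 bp, with folds of 2.60 and 3.50. H4K12ac was found at 31 places only in untreated cells and at 2 only in NaPr cells, of 177. Against NaBu cells there were 48 only in untreated cells and 0 only in NaBu cells, of 168. H3K18ac was found at 0 places only in untreated cells and at 3 only in NaPr cells, of 147, all 3 in the MCL1 window. It was found at 9 places only in untreated cells and at 4 only in NaBu cells, of 110. The 4 lay in the windows of BCL2, BCL2L1, BBC3 and PMAIP1. The one beside BBC3 (1452 bp, 15501 bp from its start, fold 12.2 and 11.5) was the strongest and reached past the edge of the window.

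Against the input of their own condition, all 20 immunoprecipitated libraries covered more of the window for BCL2L1, BAX, BBC3 and PMAIP1. BAK1 did so in 19 libraries, MCL1 in 18, BCL2, BCL2L11 and BMF in 16 each, and BID in 15. All 20 libraries exceeded their input for 7.39% of all genes. The input of each condition was 1 library, so these counts have no replicate check on the input side.

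The other genes of the pathway were read in the same way. Of 42 genes in 7 lists (further BCL2 family members, apoptosome and caspases, inhibitors of apoptosis, death receptors and upstream regulators), 35 were higher with H4K12pr than with H4K12ac and 0 lower, where 61.4% of all genes were higher. With H3K18bu 38 were lower than with H3K18ac (64.5% of all genes), and with H4K12bu 19 were lower than with H4K12ac (20.1%), with none higher in either. With H3K18pr 2 were higher and 5 lower (12.5% and 11.1%). H4K12ac was lower than in untreated cells for 38 of the 42 in NaPr cells (67.3%) and for 38 in NaBu cells (74.4%), and higher for 1 and 0. H3K18ac was lower for 5 and higher for 2 in NaPr cells (14.6% and 4.72%), and lower for 29 and higher for 0 in NaBu cells (58.7% and 3.19%). None of the 42 passed the adjusted threshold over all genes, and none was called the same way in all 4 acyl comparisons. Their start sites were occupied in 3 and 4 of 42 in the H4K12bu libraries, against 8.71% and 5.82% of all genes, and in 38 and 37 of 42 with H3K18ac of untreated cells, against 64.8% and 67.2%.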

How the data were processed

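Chromatin immunoprecipitation libraries of SW480 cells were deposited as 23 region lists on hg38 (20 immunoprecipitated, 3 input). The authors trimmed reads with cutadapt 1.8.1, aligned them with Bowtie2 2.3.1 and called regions with MACS2 2.1.0 at p 0.01. Tool versions follow the submitters' processing notes. The deposited columns used here were fold over background (a ratio), the −log10 p-value and the −log10 q-value. No read counts were in the lists, so the study's DiffBind fit was replaced by percent of window covered and permutation over libraries. Pileups within 0.1 of a whole number could be solved from fold and p in 13 lists, where background density was 3.38 to 38.6 fragments per kb; the depth of the NaBu lists and the untreated input is unknown.

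Coverage, region counts and places by −log10 p were computed with Python 3.11.15, numpy 2.4.6 and pandas 2.3.3 for 20007 protein-coding genes. Tests on simulated data recovered planted changes. No label names separate cultures, so p-values measure only the spread between libraries, which may be technical. The 4 acetyl lists of NaBu cells carry a control tag in their deposited names; the labels were followed. Members and pathway lists were chosen with earlier results of these data known. All 10 members were named, other pathway genes were counted, and 4 upstream stretches were shown for the genes with the most and the fewest occupied start sites. The BCL2L1 neighbours, the side of the PMAIP1 summits and the regions singled out were chosen after their values were seen. Upstream stretches were taken from the gene record because those at the canonical starts of BCL2 and BCL2L1 lie in exons of other transcripts. Alternatives were equal numbers of regions, q under 0.05, gene bodies without flanks, removal of regions over input regions, each replicate left out, and a replicate block. Same-numbered libraries had correlated deviations of 0.241, 0.0845, 0.242 and 0.319 in the 4 comparisons, so the numbers did not establish pairs.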

Additional observations from a re-analysis of the deposited data

Results flagged for a closer look

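At 10 of 10 genes both H4K12pr libraries lay above both H4K12ac libraries in NaPr cells, and both H3K18bu libraries lay below both H3K18ac libraries in NaBu cells (61.4% and 64.5% of all genes). These are different histone sites. At the same site as H3K18bu, H3K18pr minus H3K18ac was negative in NaPr cells at 9 of the 10 genes, for example -9.10 points at BAK1 and -6.60 at BBC3, and 2.89 at PMAIP1, with overlapping replicates. The difference between the treatments was not tested, and the comparisons also differ in batch. The values below are differences of mean percent covered, in percentage points, H4K12pr minus H4K12ac first and H3K18bu minus H3K18ac next. They were 31.3 and -17.5 at BCL2L1, 17.8 and -11.2 at MCL1, and 0.191 and -0.788 at BCL2. The pore-forming genes gave 24.4 and -14.9 (BAX) and 18.6 and -13.2 (BAK1). The BH3-only genes gave 16.2 and -1.53 (BID), 24.2 and -26.9 (BBC3), 5.42 and -9.77 (PMAIP1), 11.5 and -2.70 (BCL2L11), and 9.81 and -2.04 (BMF). At 5 genes both H4K12bu libraries also lay below both H4K12ac libraries of NaBu cells, by -4.61 at MCL1, -6.65 at BAX, -2.15 at BAK1, -4.35 at PMAIP1 and -0.532 at BCL2L11. The butyryl lists held fewer regions than the acetyl lists of the same site and treatment, and the part of list length in these values was not tested beyond the equal-number setting.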

How the results depend on the processing

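Counts are of the 10 genes called higher or lower, with the share of all genes called the same way in brackets. With equal numbers of regions (8158 per list), H3K18pr against H3K18ac gave 2 higher (9.04%) and 1 lower (6.29%). H4K12pr against H4K12ac gave 4 higher (17.8%), H3K18bu against H3K18ac 6 lower (19.7%), and H4K12bu against H4K12ac 3 lower (8.81%). Against untreated cells, equal numbers gave 0 higher (1.46%) and 3 lower (12.9%) for H3K18ac of NaPr cells. They gave 1 higher (2.41%) and 2 lower (23.4%) for H4K12ac of NaPr cells. In NaBu cells H3K18ac gave 1 higher (4.88%) and 2 lower (21.8%), and H4K12ac 1 higher (3.73%) and 3 lower (23.6%). Without flanks, H3K18bu gave 9 lower (52.7%), H4K12bu 3 lower (13.5%) and H3K18ac of NaPr cells 2 lower (13.6%). H4K12ac of NaPr cells gave 9 lower (59.8%), and H3K18ac of NaBu cells 0 higher (3.34%) and 7 lower (52.8%). At q under 0.05, H3K18bu gave 8 lower (57.2%), H4K12bu 4 lower (7.88%) and H3K18ac of NaPr cells 0 higher (4.11%). Without regions over input regions, H4K12pr gave 7 higher (57.2%), and H3K18bu 8 lower (58.8%) and 1 higher (0.29%). H4K12ac of NaBu cells gave 9 lower (72.9%). The causes were not tested. Leaving out each replicate gave 0 to 4 higher and 0 to 9 lower for H3K18pr, and 5 to 9 lower for H4K12bu. It gave 1 to 7 higher and 1 to 7 lower for H3K18ac of NaPr cells, and 1 to 4 higher for H3K18ac of NaBu cells. Fewer libraries had to agree for these calls, and no share of all genes was set beside them. The widest ranges came from leaving out either H3K18ac library of NaPr cells, the 9 for H4K12bu from leaving out H4K12ac of NaBu cells, replicate 2, and the 4 for H3K18ac of NaBu cells from leaving out H3K18ac of untreated cells, replicate 1.

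With a replicate block, 0 genes passed the adjusted threshold (483 at an unadjusted p under 0.05), as without it (579), and each of the 10 genes kept an adjusted p of 1 in the exact permutation test. Start site counts fell when the region had to cover the start base itself, to 0 of 10 genes for both butyryl marks. No share of all genes was set beside these counts, so they are not read as a result about these genes. The lists hold only regions past a threshold, so a window without one is not shown to lack the mark.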
